A study of Mus musculus with 8 samples.

Results

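Small clonotypes are groups of 2, 3 or 4 T cells of a library that carry the same T cell receptor (TCR), so that their cells are probable sisters from 1 founder. A barcode, the tag of a droplet and here taken as 1 cell, was accepted when it had at least 1 productive alpha chain (TRA) and exactly 1 productive beta chain (TRB). Barcodes with the same set of nucleotide sequences of the complementarity-determining region 3 (CDR3), over all chains, formed a clonotype. Of 12744 clonotypes in 20185 accepted barcodes, 533 were small: 317 had 2 barcodes, 123 had 3 and 93 had 4. They held 1375 barcodes, of which 1350 also passed the filters of the expression data (at least 500 genes and under 10% mitochondrial counts), among 19870 such cells in all. Of the 533 clonotypes, 521 kept at least 2 cells, 10 kept 1 and 2 kept 0, which gave 1206 pairs of sister cells.

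The series profiled CD8 T cells out of tumours that wild type C57BL/6 mice bore from MC38, a colon carcinoma line of the mouse, by droplet 5′ RNA sequencing with matched TCR sequencing. In the first experiment mice were given rhIL-7-hyFc, interleukin-7 joined to a hybrid Fc so that it lasts longer, at 10 mg/kg under the skin, or buffer, and tumours were collected after 7 days. In the second experiment the combination was rhIL-7-hyFc at 1.25 mg/kg with a T cell engager, an antibody that binds both mouse PD-L1 and CD3ε, infused into a vein from 3 days later, and its comparison was rhIL-7-hyFc at 1.25 mg/kg alone, with tumours taken 24 h after the last treatment. The labels can be read as 3 engager doses on successive days or as 3 doses per day. Cells were selected with magnetic beads in the first experiment and sorted as viable CD45+ TCRb+ CD8a+ cells in the second. A group consisted of 1 library of each kind, pooled from a number of mice not stated in the sources used here.

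As background, a T cell builds its receptor by joining V, D and J segments for the beta chain and V and J segments for the alpha chain. Bases are trimmed and added at the joints, so the CDR3 sequence serves as a natural barcode that every daughter cell inherits. In a tumour, T cells that meet their antigen divide and may take on programmes of cytotoxicity or exhaustion, whereas bystander cells enter without meeting theirs.

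The expression libraries held 5589 to 12560 barcodes and 47308214 to 118191371 unique molecular identifiers (UMIs), and 2749 to 6776 TCR barcodes were accepted. Small clonotypes carried the markers of their sort. Cd8a, the alpha chain of the CD8 coreceptor, stood at 1072 to 1357 counts per 1000000 UMIs (CPM) in their summed cells of each library, and Cd4 at 1.11 to 3.06 CPM. RNA of other cells was present. The 14 markers of macrophages and monocytes summed to 618 CPM with rhIL-7-hyFc 10 mg/kg, 496 CPM with buffer, 1155 CPM with the combination and 5298 CPM with rhIL-7-hyFc 1.25 mg/kg, with none of the 14 at 0 in any library. Neutrophil markers summed to 0.369, 1.55, 4.94 and 126 CPM in the same order of libraries. No doublets were removed. The most abundant TRBV gene of the expression data was the V gene of the TCR contig in 85.6% to 87.9% of small-clonotype cells with a TRBV count. The V name of the contig was itself a gene of the expression data in 169 of 189, 222 of 238, 486 of 520 and 371 of 403 small-clonotype cells. The remaining cells could not match. Sister barcodes differed at a median of 12 of their 16 bases and never at fewer than 5, so no sister pair was a near-copy of 1 barcode. Libraries shared 45 to 195 expression barcodes and 21 to 57 accepted TCR barcodes a pair, and 0 shared barcodes carried the same clonotype.

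Small clonotypes made up 3.97% of accepted barcodes with rhIL-7-hyFc 10 mg/kg (74 clonotypes, 191 barcodes, exact 95% interval 3.44 to 4.56), against 8.95% with buffer (98 clonotypes, 246 barcodes, 7.91 to 10.1). They made up 7.82% with the combination (206 clonotypes, 530 barcodes, 7.19 to 8.49), against 6.97% with rhIL-7-hyFc 1.25 mg/kg (155 clonotypes, 408 barcodes, 6.33 to 7.66). The first pair of intervals does not overlap and the second pair does. These and all later intervals cover counting error only and leave out variation among mice, and with 1 library per group the treatments have no replicate check. Clonotypes seen once filled most of the first library (88.5%), against 37.8% with buffer, and clonotypes of 5 or more barcodes (large ones) filled 7.57% against 53.3%. In the second experiment clonotypes seen once held 49.7% with the combination and 54.9% with rhIL-7-hyFc 1.25 mg/kg, and those of 5 or more 42.5% and 38.2%. A size class depends on how many cells were read. At an equal 2749 barcodes a library, small clonotypes held 4.96% with rhIL-7-hyFc 10 mg/kg and 8.95% with buffer, and 9.76% with the combination and 9.34% with rhIL-7-hyFc 1.25 mg/kg.

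**Figure D1:**
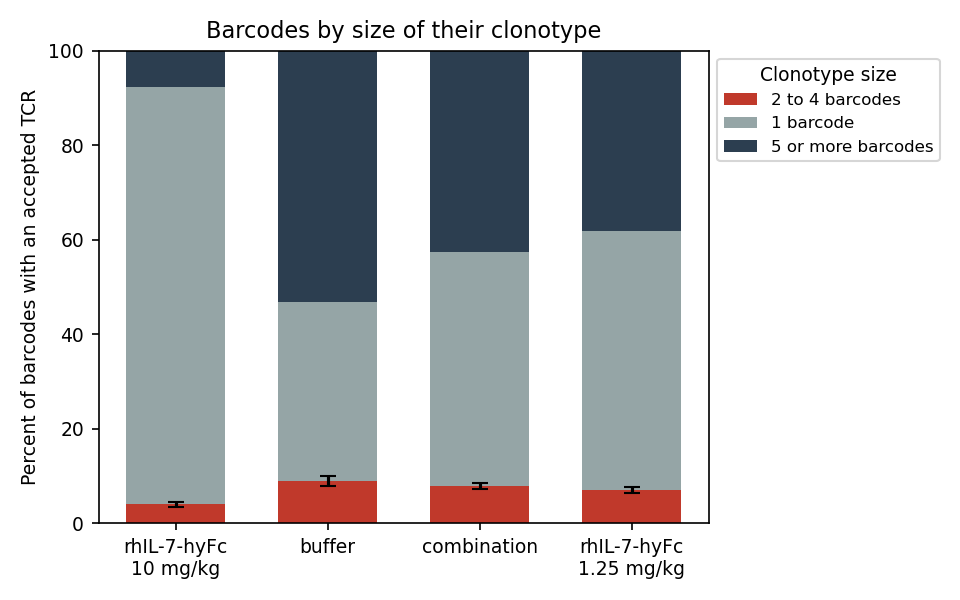
Share of accepted TCR barcodes (percent, vertical axis) in clonotypes of each size class, for the 4 libraries, with exact 95% intervals that cover counting error only. Small clonotypes hold 3.97% with rhIL-7-hyFc 10 mg/kg and 6.97% to 8.95% in the other 3 libraries, while the share of clonotypes seen once runs between 37.8% and 88.5%.

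Small clonotypes shared chains with other clonotypes more often than clonotypes seen once did. Their TRB sequence stood in another clonotype of the same library for 10 of 74 with rhIL-7-hyFc 10 mg/kg, 19 of 98 with buffer, 41 of 206 with the combination and 45 of 155 with rhIL-7-hyFc 1.25 mg/kg, which is 13.5%, 19.4%, 19.9% and 29.0%. Of clonotypes seen once, 1.25%, 6.54%, 2.50% and 4.24% did so. The small share was the higher one in each of the 4 libraries. In 8, 11, 27 and 32 of these cases the alpha chains of one clonotype were a subset of the other's. A missed alpha chain and a separate clone therefore cannot be told apart. In 2, 4, 21 and 19 cases the TRB sequence was shared with a large clonotype. Whether such small clonotypes were parts of large clones was not tested. In the expression test against large clonotypes given below, 3 genes were higher and 0 lower. Clonotypes defined by TRB alone gave 41 higher and 4 lower. The joints themselves were of like length. Bases between the germline V and J parts of TRB had a median of 10, 9, 10 and 10 in small clonotypes and of 10 in each library for clonotypes seen once, and in TRA the medians were 3, 2, 3 and 3 in small clonotypes and 3, 3, 3 and 2 in those seen once.

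Receptor peptides that recurred in another library, and so in other mice, were more frequent among small clonotypes. Among clonotypes with 1 alpha chain, the same pair of alpha and beta CDR3 peptides was found in another library for 6 of 57 small clonotypes with rhIL-7-hyFc 10 mg/kg (10.5%), 7 of 85 with buffer (8.24%), 9 of 186 with the combination (4.84%) and 6 of 131 with rhIL-7-hyFc 1.25 mg/kg (4.58%). For clonotypes seen once the shares were 0.224%, 0.569%, 0.651% and 0.398%. The small share exceeded the other in 4 of 4 libraries, by a mean of 6.58 percentage points (SD 2.97, n = 4 libraries; exact two-sided sign-flip test p = 0.125, the smallest that 4 libraries allow). The libraries match one another, so they are not independent in this count. All of these small matches included a partner in another library that was written by another nucleotide sequence. Clonotypes of 5 or more matched in 17.9%, 5.56%, 6.73% and 10.9%. Of 447 peptide pairs held by a small clonotype, 19 were in more than 1 library, 6 in at least 3 and 2 in all 4.

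All 4 of the nucleotide clonotypes that were small in at least 1 library and present in another belonged to 1 family, chosen here after its values were seen and given as a description. It joins TRBV17 (Trbv17, GRCm38 chr6:41163092-41163556) to TRBJ1-1 (Trbj1-1, chr6:41533864-41533911) and TRAV5-4 (Trav5-4, chr14:53704007-53704514) to TRAJ53 (Traj53, chr14:54162644-54162709). Its CDR3 sequences are shown because they let the same receptor be followed through the size classes. They are printed 5′ to 3′ as in the deposited contig tables, in lower case with the bases that differ from the most abundant sequence, beta 1 or alpha 1, in capitals.
beta 1: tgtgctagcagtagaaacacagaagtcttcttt
beta 3: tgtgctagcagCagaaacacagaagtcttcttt
alpha 1: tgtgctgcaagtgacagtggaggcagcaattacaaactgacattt
alpha 2: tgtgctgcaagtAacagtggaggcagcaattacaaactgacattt
alpha 5: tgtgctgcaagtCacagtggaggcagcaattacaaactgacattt

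Counted from 1 at the 5′ end of the CDR3, beta 3 differs from beta 1 by T12C, and alpha 2 and alpha 5 differ from alpha 1 by G13A and G13C. Both beta sequences encode the same peptide, whereas alpha 2 and alpha 5 do not encode the peptide of alpha 1. Beta 1 can be read wholly from germline V and J bases, since its first 15 bases match Trbv17 and its last 19 match Trbj1-1 over a length of 33. Alpha 1 is likewise covered by 13 bases of Trav5-4 and 32 of Traj53 over its 45. The family held 22 clonotypes over the libraries, of which 7 were small, 5 were seen once and 10 had 5 or more barcodes. It took up 15 barcodes with rhIL-7-hyFc 10 mg/kg (0.312% of those accepted) and 58 with buffer (2.11%), and 59 with the combination (0.871%) and 128 with rhIL-7-hyFc 1.25 mg/kg (2.19%). The receptor of beta 1 and alpha 1 had 7, 4, 14 and 70 barcodes in these libraries, and was therefore small with buffer only. Beta 1 with alpha 2 had 3, 0, 3 and 6 barcodes, and beta 3 with alpha 1 had 3, 0, 0 and 1. The same receptor thus fell in different size classes in different libraries. The small-clonotype cells of the whole family were 6, 4, 6 and 6 in number. They had Pdcd1 at 658, 891, 1220 and 851 CPM and Gzmb, the gene of granzyme B, at 4564, 15110, 164 and 3818 CPM. These cells carry different alpha peptides, so the values are not those of 1 receptor across libraries. Clonotypes of 1 library that differ by 1 base cannot be told apart from errors of contig assembly.

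In expression, small clonotypes stood far from clonotypes seen once and close to those of 5 or more. Exhaustion, cytotoxicity, effector, glycolysis and mitosis genes were higher than in clonotypes seen once, and naive and memory genes and ribosomal protein genes were lower. Counts were summed over the cells of each size class in each library, and edgeR's quasi-likelihood test with the library as a block compared classes over the 4 libraries, with Benjamini-Hochberg adjustment over 11633 genes. Against clonotypes seen once, 1741 genes were higher (15%) and 1814 lower (15.6%) at an adjusted p under 0.05. Scaling by library totals shifted the median of all genes by 0.108 on the log2 scale and gave 2408 higher and 1225 lower. The median absolute log2 difference over these genes was 0.386, 0.303, 0.242 and 0.290 between small and once in the order of libraries used above, and 0.183, 0.184, 0.158 and 0.148 between small and large. In a sum over cells, more cells that express a gene and more RNA per cell cannot be told apart. The macrophage markers summed to 618, 496, 1155 and 5298 CPM in small clonotypes and 378, 926, 408 and 3653 CPM in those seen once, and none of the 14 passed the test. The fit was rerun on cells with Cd8 and Cd3 UMIs and none of Cd4, Lyz2, C1qa, C1qb, C1qc, Apoe and Csf1r. Of 10359 genes 1565 were then higher and 1609 lower. The median log2 difference was 1.64 for the exhaustion list and −1.30 for the naive and memory list. The part of other macrophage RNA in the results was not tested. Small-clonotype cells also held more UMIs than cells seen once in 3 of the 4 libraries, with medians of 12818 against 9334, 8969 against 7286 and 6680 against 5237, and fewer with the combination (5602 against 6395).

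Inhibitory receptors and their regulators were higher in small clonotypes. Pdcd1, which encodes PD-1, stood in small clonotypes at 657 CPM with rhIL-7-hyFc 10 mg/kg, 611 with buffer, 871 with the combination and 684 with rhIL-7-hyFc 1.25 mg/kg. In clonotypes seen once it stood at 27.9, 185, 147 and 96.8 CPM. The 4 small values all lie above the 4 others (log2 difference 2.70, SE 0.45, edgeR adjusted p = 0.0055). Within the first experiment Pdcd1 thus differed between the treatments in clonotypes seen once, 27.9 against 185 CPM, and was close in small clonotypes, 657 against 611 CPM, with no test of that contrast in 1 library each. Havcr2, which encodes TIM-3, had 112, 109, 73.4 and 69.1 CPM in small clonotypes and 3.57, 35.3, 34.0 and 16 CPM in those seen once (log2 difference 2.17, adjusted p = 0.034 in edgeR). Tox, a transcription factor of exhausted T cells, was 1.44 higher on the log2 scale (edgeR adjusted p = 0.011), and Entpd1, which encodes the ectonucleotidase CD39, 1.22 higher (edgeR adjusted p = 0.031). Of 20 tested genes of the exhaustion list 16 were higher and 2 lower, with a median log2 difference of 1.54 beside −0.004 over all genes tested. The transcription factor genes Bhlhe40 (1.44) and Eomes (−2.10) of this list went in opposite directions.

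The naive and memory programme was lower. Tcf7, the gene of TCF-1, which keeps T cells stem-like, had 18.5, 15.1, 41.1 and 31.5 CPM in small clonotypes, 172, 120, 111 and 205 CPM in those seen once and 5.47, 3.64, 9.64 and 8.96 CPM in those of 5 or more. The 3 classes do not overlap, and the small one lies between the others (small minus once −2.66, SE 0.32, edgeR adjusted p = 0.0011; small minus large 1.91, edgeR adjusted p = 0.34). S1pr1, the lipid receptor for egress from tissue, had 11.1, 14.8, 11.1 and 9.48 CPM in small clonotypes against 127, 85.9, 55.2 and 64.6 CPM (−2.91, edgeR adjusted p = 8.6e-06). Of 22 genes of the list 17 were lower and the other 5 did not pass, with a median of −1.33. Among genes outside the lists, Cd7, an immunoglobulin family receptor of T and NK cells, had 23.3, 18.6, 32.4 and 32.7 CPM in small clonotypes and 203, 271, 238 and 251 CPM in those seen once. Its groups lie far apart, with a log2 difference of −3.26 (edgeR adjusted p = 1.6e-06). The sialic acid hydroxylase gene Cmah (−3.31), the transcription factor gene Myb (−2.03) and the chromatin gene Hmgn1 (−1.37) were also lower. Of the naive and memory list the transcription factor gene Foxp1 (−1.27) was lower, and so was Bcl2 (−1.04), which protects cells from death.

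**Figure D2:**
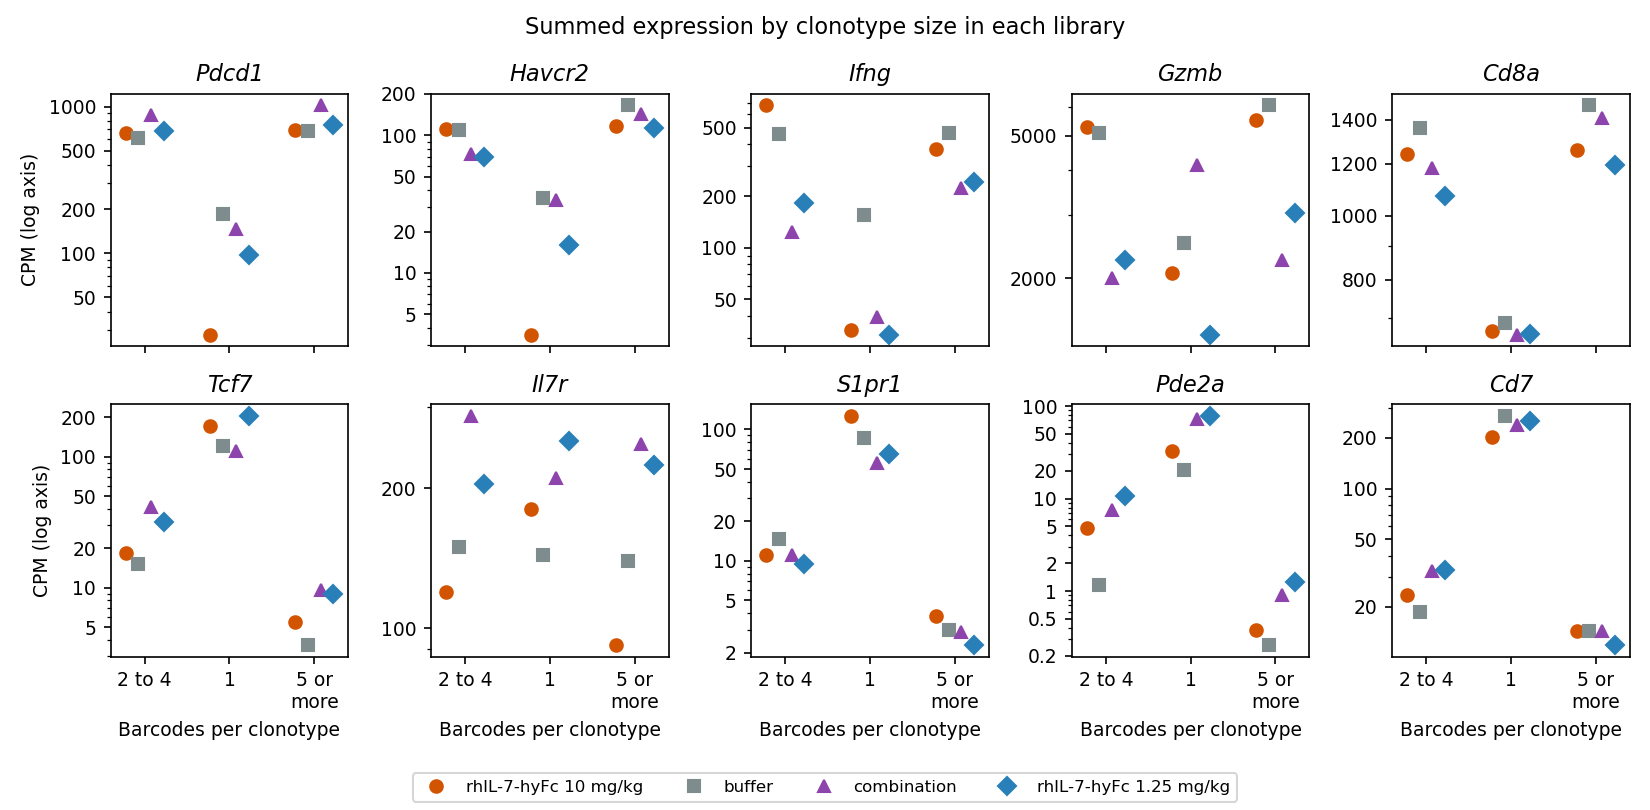
CPM on a log axis of named genes in the summed cells of small clonotypes, clonotypes seen once and clonotypes of 5 or more, 1 point per library and class. Pdcd1 is at 611 to 871 CPM in small clonotypes and 27.9 to 185 CPM in those seen once, and Tcf7 at 15.1 to 41.1 CPM lies between 111 to 205 CPM in clonotypes seen once and 3.64 to 9.64 CPM in large ones.

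Effector programmes were higher in part. Ifng, which encodes interferon gamma, had 678, 462, 123 and 182 CPM in small clonotypes and 33.1, 154, 39.7 and 31.2 CPM in those seen once (log2 difference 2.42, edgeR adjusted p = 0.012). The small value was the higher one in all 4 libraries, although those of the second experiment lie near the buffer value of clonotypes seen once. A single clonotype held 53.1%, 37.6%, 5.67% and 24.8% of the Ifng UMIs of small clonotypes. Csf1, a growth factor of macrophages, was 2.93 higher (edgeR adjusted p = 0.00080), and Areg, the growth factor amphiregulin, 2.44 higher (edgeR adjusted p = 0.020). Areg is also 1 of 6 tumour cell markers, which summed to 42.4, 73.2, 29.7 and 65.3 CPM in small clonotypes and 3.02, 20.3, 14.4 and 20.2 CPM in those seen once. Areg made up 38.8, 68.3, 27.7 and 62.7 CPM of the sums in small clonotypes. Of the other markers, Epcam had 2.59, 4.66, 1.17 and 1.83 CPM there, against 1.45, 10.5, 3.34 and 3.68 CPM in clonotypes seen once. Krt18 was above 0 in small clonotypes of all 4 libraries, and Krt8 and Krt19 were at 0. In clonotypes seen once Krt19 was at 0 as well, and so was Krt8 except with rhIL-7-hyFc 10 mg/kg. The part of tumour cell RNA in Areg was not tested. Gzmb had 5296, 5070, 2010 and 2247 CPM in small clonotypes and 2071, 2512, 4131 and 1396 CPM in those seen once, and did not pass the test (0.32, edgeR adjusted p = 0.63). The combination differed from the other 3 libraries in having more Gzmb in clonotypes seen once. Gzma, the gene of granzyme A, had 182, 512, 964 and 384 CPM in small clonotypes against 192, 242, 5552 and 175 CPM, with clonotypes seen once of the combination far above all others (−0.38, edgeR adjusted p = 0.80). Of 19 cytotoxicity genes 12 were higher and 1 lower (median 0.71), of 22 effector differentiation genes 14 were higher and 2 lower (0.84), and of 18 cytokines and chemokines 9 were higher and the other 9 did not pass (0.96). Among the effector differentiation genes, the transcription factor gene Tbx21 (T-bet) was 1.25 higher. In the list of early genes of TCR signals 11 of 20 were higher and 5 lower, with Irf8 at 2.06.

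Small clonotypes had more mitosis and glycolysis RNA and less ribosomal protein RNA. Of 32 genes of G2 and mitosis 19 were higher and 1 lower (median 0.90), among them the centromere genes Cenpa (1.14, edgeR adjusted p = 0.00088) and Cenpf (1.03, edgeR adjusted p = 0.0029). Of 30 genes of DNA replication and S phase 2 were higher and the other 28 did not pass (median 0.40), while DESeq2 called 9 of the 30 higher. Mki67, a marker of dividing cells, had 109, 50.5, 102 and 83.8 CPM in small clonotypes against 31.0, 49.7, 83.4 and 48.6 CPM in those seen once, and did not pass (0.63, edgeR adjusted p = 0.14). Of 19 glycolysis genes 17 were higher and 1 lower (median 0.73). The glucose transporter gene Slc2a3 (1.45) was among the higher ones. Outside the list, the oxygen-regulated transcription factor gene Hif1a was 0.99 higher. All 36 cytosolic ribosomal protein genes were lower (median −0.43). Of 32 type I interferon response genes 16 were lower and 1 higher (median −0.35), and under scaling by library totals 11 were lower and 1 higher (−0.23). Interferon gamma response genes were split, with 14 of 28 lower and 6 higher (−0.27), and 10 lower and 8 higher under scaling by library totals (−0.17). In the IL-7 and STAT5 list 5 of 20 were higher and 8 lower (−0.16). Cish, a feedback inhibitor of cytokine signals, was 0.96 higher (edgeR adjusted p = 3.3e-06), and Il7r, the IL-7 receptor alpha chain, did not pass (119, 150, 287 and 205 CPM in small clonotypes against 180, 144, 211 and 253 CPM; −0.23, edgeR adjusted p = 0.47). NK-type receptors were split, 4 of 17 higher and 6 lower (−0.50), as were genes of CD3 and TCR signalling, 5 of 20 higher and 6 lower (−0.09, and 0.02 under scaling by library totals). Of 14 tissue residency genes 7 were higher and 1 lower (0.57), among them the chemokine receptor gene Cxcr6 (1.83, edgeR adjusted p = 0.00070).

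**Figure D3:**
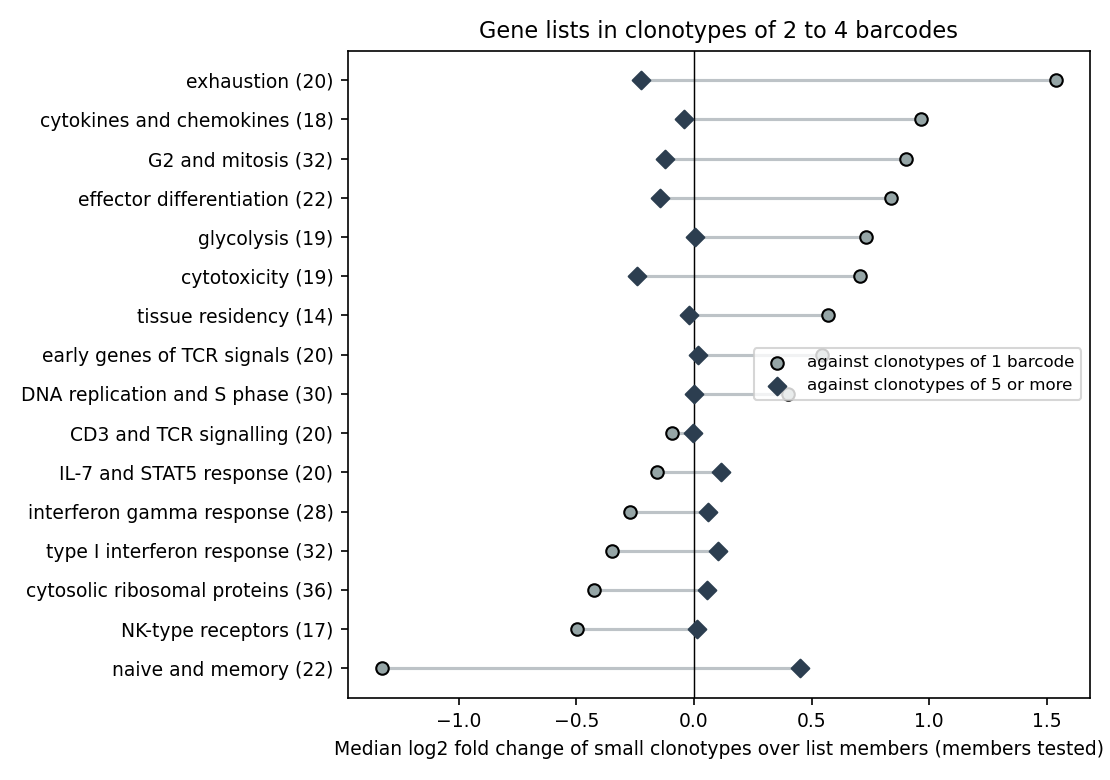
Median log2 difference of each gene list between small clonotypes and clonotypes seen once, and between small clonotypes and those of 5 or more, over the genes tested. The exhaustion list is at 1.54 and the naive and memory list at −1.33 against clonotypes seen once, and at −0.23 and 0.45 against large clonotypes.

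Against clonotypes of 5 or more, 3 genes were higher in small clonotypes (0.0258%) and 0 were lower (0%) in the same edgeR fit, with 743 genes at an unadjusted p under 0.05 in either direction. The 3 genes were Pde2a, a phosphodiesterase gene, the long non-coding RNA Ifngas1 next to Ifng, and S1pr1. Pde2a had 4.81, 1.17, 7.58 and 10.7 CPM in small clonotypes against 0.377, 0.260, 0.916 and 1.27 CPM in large ones and 33.0, 20.3, 73.1 and 78.9 CPM in those seen once. In each library the small value lies between those of the other classes (small minus large 3.03, edgeR adjusted p = 8.0e-05). S1pr1 had 3.77, 2.96, 2.89 and 2.28 CPM in large clonotypes, all below its small values (1.92, edgeR adjusted p = 0.045). The count depended on which sums entered the fit. With only the small and large sums edgeR gave 168 genes higher and 158 lower, and DESeq2 gave 41 higher and 3 lower. Of the 3 genes named, DESeq2 called all and the fit of those classes alone called S1pr1, while Pde2a and Ifngas1 did not pass its filter on low counts. With no block none of the 3 passed. With each library left out in turn Pde2a passed in 4 of 4 fits, S1pr1 in 2 (not without buffer or without rhIL-7-hyFc 1.25 mg/kg) and Ifngas1 in 0. In the edgeR fit of those classes alone 10 naive and memory genes were higher and 7 exhaustion genes were lower in small clonotypes.

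Sister cells of small clonotypes were slightly more alike than unrelated cells of their library. Each cell was thinned to 3000 UMIs, and likeness was the Pearson correlation of 2 cells over 2000 variable genes without receptor genes, each gene scaled over the small-clonotype cells of its library. Thinning left out 2, 11, 14 and 26 cells that held fewer UMIs. Likeness is given as a description, since pairs share a library and depth. The mean over sister pairs of a clonotype had a median of 0.006 with rhIL-7-hyFc 10 mg/kg, 0.014 with buffer, 0.020 with the combination and 0.007 with rhIL-7-hyFc 1.25 mg/kg, over 72, 88, 195 and 136 clonotypes. Pairs of cells from different small clonotypes had medians of −0.008, −0.007, −0.004 and −0.006. The difference was 0.014, 0.021, 0.024 and 0.013, positive in 4 of 4 libraries, with a mean of 0.0180 (SD 0.0053, n = 4 libraries; exact two-sided sign-flip test p = 0.125, the smallest that 4 libraries allow). In 72.2%, 85.2%, 84.6% and 65.4% of the clonotypes the sisters were more alike than the median unrelated pair. The most similar cell among all small-clonotype cells was a sister for 3.24%, 4.59%, 8.27% and 4.14% of cells, where 0.981%, 0.774%, 0.354% and 0.528% of the candidates were sisters. Most cells therefore had an unrelated cell as their nearest one. Clonotypes of 2 cells had higher medians (0.017, 0.025, 0.028 and 0.021) than those of 4 cells (−0.001, 0.010, 0.011 and 0.001) in each library. Cells of clonotypes of 5 or more showed differences of 0.009, 0.011, 0.015 and 0.008 by the same measure.

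**Figure D4:**
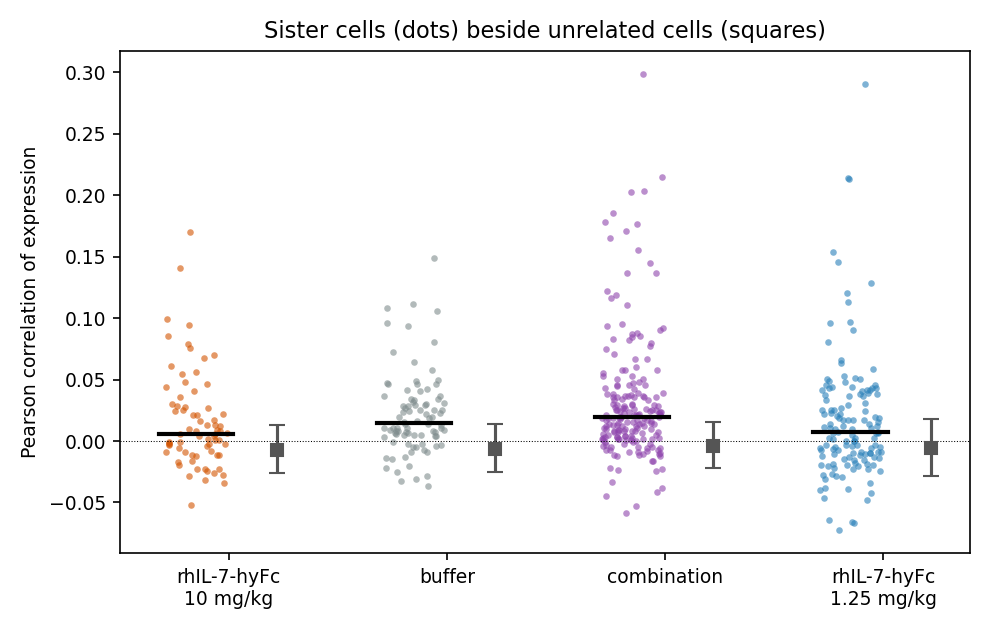
Pearson correlation of expression between sister cells (dots, 1 mean per small clonotype, with their median as a line) beside unrelated cells of the same library (squares at the median, bars to the quartiles), after thinning to 3000 UMIs per cell. The sister medians run between 0.006 and 0.020 and lie above the unrelated medians of −0.008 to −0.004 in all 4 libraries.

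A small set of genes was alike in sister cells, while most genes were close to 0. The intraclass correlation is the share of a gene's variance between cells that lies between clonotypes; it is near 0 where sisters are no more alike than other cells and can fall below 0. Over 2641 genes, without receptor, mitochondrial, ribosomal and unnamed genes, with a UMI in at least 10% of cells in each library, its mean over the libraries had a median of 0.0124, 366 genes (13.9%) were above 0 in all 4 libraries and 22 had a mean above 0.2. Some genes would lie above 0 in all 4 libraries without any likeness of sisters, and their share was not estimated. Gzmk, which encodes granzyme K, had the highest mean, 0.51 ± 0.18 (SD, n = 4 libraries), with 0.67, 0.65, 0.38 and 0.34 in the order of libraries used above. Ccl5, a chemokine gene of effector cells, followed with 0.49 ± 0.11, and then came Ly6c2, a surface marker of memory and effector CD8 cells, with 0.37 ± 0.18 and S100a6, a calcium-binding protein gene, with 0.32 ± 0.09. Pdcd1 had 0.30, 0.36, 0.30 and 0.32, the narrowest spread among the first 15 genes (mean 0.32 ± 0.03). Gzmb (0.28), the interferon-induced membrane protein gene Ifitm2 (0.26), the inhibitory receptor gene Lag3 (0.26), Ifi27l2a (0.25), the actin regulator gene Capg (0.24) and Tnfrsf4 (OX40, 0.23) were also among the 15. By contrast Havcr2 (0.066), Tox (0.053) and Entpd1 (−0.021) had means near 0, and so had Top2a (0.046), a topoisomerase gene of dividing cells. Havcr2, Tox and Entpd1 had lower CPM than Pdcd1 in every library, and the part of that in their lower values was not tested.

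Summed over gene lists, the exhaustion list had the highest intraclass correlation among the pathway lists, at 0.48, 0.40, 0.47 and 0.35 (mean 0.43 ± 0.06, SD, n = 4 libraries). The effector differentiation list followed at 0.35 ± 0.04, NK-type receptors at 0.29 ± 0.12, cytotoxicity at 0.27 ± 0.09 and the naive and memory list at 0.26 ± 0.14. A sum over a list weighs its abundant genes most. By single genes the exhaustion list was not the highest, with a median of 0.069 over 17 genes. The medians were 0.13 over 4 NK-type receptors, 0.13 over 16 effector differentiation, 0.10 over 14 cytotoxicity and 0.085 over 13 naive and memory genes. Cell cycle lists had 0.066 ± 0.069 for S phase and 0.041, −0.098, 0.24 and −0.073 for G2 and mitosis, which were above 0 in 2 of the 4 libraries. These values depended on clonotype size. In clonotypes of exactly 2 cells S phase had 0.15, 0.34, 0.37 and 0.20 (mean 0.27 ± 0.11), above 0 in all 4 libraries, and G2 and mitosis had a mean of 0.17 ± 0.19, above 0 in 3 of 4. In the same clonotypes the means were 0.57 for exhaustion, 0.52 for effector differentiation, 0.51 for NK-type receptors, 0.44 for cytotoxicity and 0.29 for the naive and memory list. Type I interferon genes had 0.30, 0.33, 0.39 and −0.007, with no excess likeness of sisters under rhIL-7-hyFc 1.25 mg/kg alone. Macrophage RNA had −0.13, −0.066, 0.19 and 0.054, without one direction. NK cell markers, among them Gzma and Eomes and outside the pathway lists, had 0.57, 0.49, 0.65 and 0.25. Their mean of 0.49 was above that of the exhaustion list. None of these markers had a UMI in at least 10% of cells in each library. The total UMI count per cell, before thinning, was itself alike in sisters (0.44, 0.44, 0.24 and 0.25), and its part in the other values after thinning was not tested.

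Sister cells also matched more often than unrelated cells in the presence or absence of Gzmk and Pdcd1 transcripts. Sister pairs had the same Gzmk state, both with or both without a UMI after thinning, in 87.3%, 76.3%, 85.2% and 87.1% of pairs as a mean over clonotypes, against 74.8%, 55.7%, 78.4% and 77.3% of unrelated pairs. For Pdcd1 sisters matched in 75%, 68.4%, 79.7% and 73.7% and unrelated pairs in 59.2%, 51.9%, 67.2% and 59.1%. The sister share was the higher in every library for both genes. For Gzmb sisters matched in 78.7%, 78.6%, 67.6% and 64.3% and unrelated pairs in 74.9%, 79.6%, 51.6% and 56.9%, so that the buffer library did not share the direction of the other 3. For Mki67 sisters matched in 72.9%, 86.9%, 84.0% and 79.4% and unrelated pairs in 73.4%, 87.9%, 79.9% and 77.8%, without one direction. Entpd1 likewise had no one direction, with 66.4%, 69.9%, 76.2% and 69.9% in sisters and 66.6%, 65.5%, 75.7% and 70.5% in unrelated pairs. Free RNA, which can give a UMI in a cell that does not express the gene, was not removed.

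**Figure D5:**
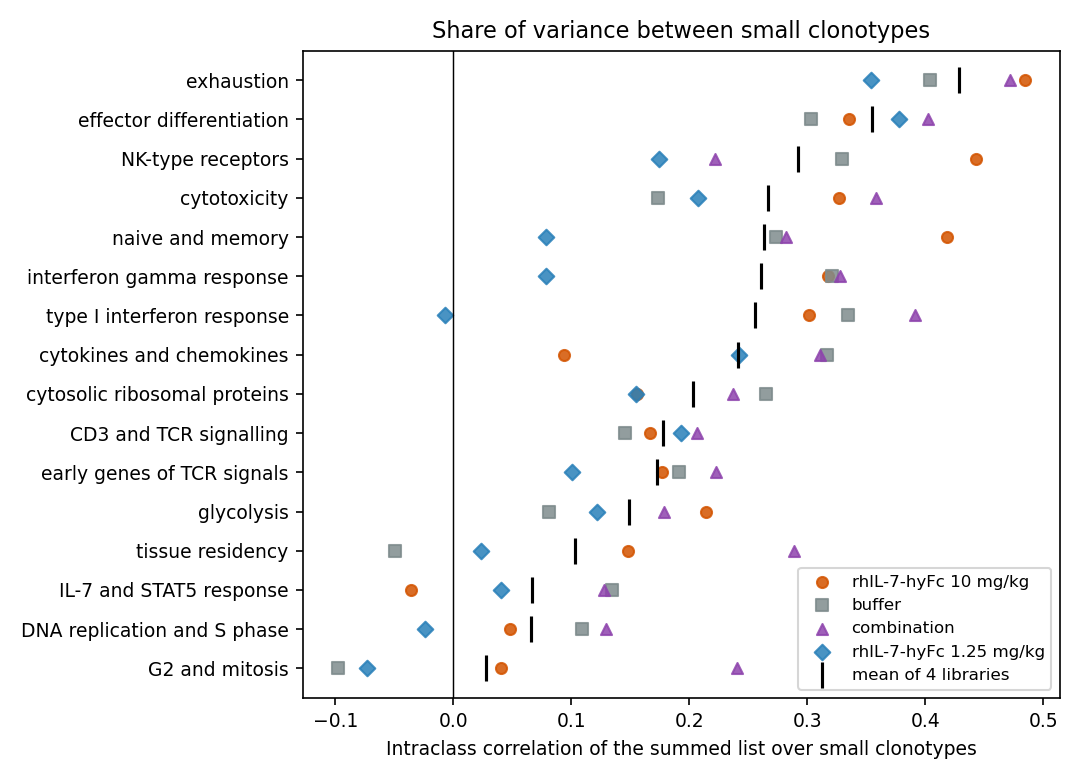
Intraclass correlation of sister cells for each gene list, 1 point per library, where 0 means that sisters are no more alike than other small-clonotype cells. The exhaustion list lies between 0.35 and 0.48, and G2 and mitosis genes lie on both sides of 0, from −0.098 to 0.24.

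The effect of rhIL-7-hyFc 10 mg/kg within small clonotypes was compared with buffer over 189 and 238 cells. Granzymes C and D and the interferon-induced gene Ifitm1 were higher with rhIL-7-hyFc, and granzymes A and K and Ccl5 were lower. Most genes of the exhaustion list stayed within 1.5-fold. The mitosis list had a larger share of higher genes, and the glycolysis list a larger share of lower genes, than all genes together. Of 8743 genes with at least 5 CPM in either library 560 were at least 1.5-fold higher (6.41%) and 690 at least 1.5-fold lower (7.89%). Folds are ratios of summed CPM with exact 95% intervals, and cells of 1 clonotype are not independent. Gzmd, the granzyme D gene, had 666 CPM with rhIL-7-hyFc 10 mg/kg against 121 CPM with buffer (5.52-fold, 4.89 to 6.24), and 25.5% and 26.7% of its UMIs came from 1 clonotype. Gzmc had 3175 against 1178 CPM (2.69-fold, 2.59 to 2.81). Ifitm1 had 2563 against 533 CPM (4.81-fold, 4.54 to 5.10). With rhIL-7-hyFc and buffer, the largest contributor held 13.7% and 15.5% of the Gzmc UMIs and 8.99% and 18.2% of the Ifitm1 UMIs. Each small clonotype is only a few of the 189 and 238 cells, so these shares are concentrated, those of Gzmd most. The folds without these clonotypes were not tested. Gzmd UMIs were found in 26 and 33 clonotypes, those of Gzmc in 56 and 80 and those of Ifitm1 in 55 and 58. By contrast all 267 UMIs of Il2, the interleukin-2 gene, came from 1 clonotype with rhIL-7-hyFc, against 0 with buffer. Gzmg had 69.8% and 69.4% of its UMIs in 1 clonotype each, at 104 and 24.1 CPM.

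Gzma had 182 CPM with rhIL-7-hyFc 10 mg/kg against 512 CPM with buffer, 2.82-fold lower (2.54 to 3.13), with 42.8% and 15.8% of its UMIs in 1 clonotype. Gzmk was 2.52-fold lower (2.14 to 2.98), at 76.6 against 193 CPM. Ccl5 was 2.63-fold lower (2.51 to 2.76), at 830 against 2183 CPM, and Ccr7, the receptor for lymph node chemokines, 3.15-fold lower (2.78 to 3.56), at 129 against 405 CPM. Lilr4b, a gene of the leukocyte immunoglobulin-like receptors, was 3.36-fold lower (2.53 to 4.53). Of the exhaustion list 1 of 20 genes was at least 1.5-fold higher and none lower, with a median log2 ratio of 0.07 beside −0.02 over all genes. Pdcd1 had 657 against 611 CPM (1.08-fold, 1.00 to 1.15), Havcr2 112 against 109 CPM (1.02-fold, 0.867 to 1.21) and Tox 49.2 against 71.5 CPM (0.688-fold, 0.547 to 0.865). The naive and memory list had 3 of 21 higher and 2 lower (median 0.03), with Tcf7 at 18.5 against 15.1 CPM, not separated at this depth (1.22-fold, 0.787 to 1.91). Mki67 had 109 against 50.5 CPM (2.15-fold, 1.75 to 2.67), and 9 of 32 genes of G2 and mitosis were higher and none lower (0.41). Glycolysis genes were lower in 6 of 19 (−0.35), among them the mitophagy gene Bnip3 (1.98-fold, 1.64 to 2.4) and the lactate transporter gene Slc16a3 (1.80-fold, 1.49 to 2.19). The IL-7 and STAT5 list had 2 of 20 lower and the others within 1.5-fold (−0.09), with the kinase gene Pim1 1.56-fold lower (1.35 to 1.80), and no gene of 20 for CD3 and TCR signalling reached 1.5-fold. Markers of other cells moved beside these. Dendritic cell markers summed to 14.7 against 71.2 CPM, and of 12 measured macrophage markers 5 were higher and 6 lower. H2-Ab1, a gene of MHC class II, was at 78.4 against 26.0 CPM with 62.7% of its UMIs in 1 clonotype. Their part in the other differences was not tested.

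The combination was compared with rhIL-7-hyFc 1.25 mg/kg over 520 and 403 small-clonotype cells. Mitosis genes, Gzma and Pdcd1 were higher with the combination, and type I interferon response genes, the chemokine genes Ccl3 and Ccl4 and myeloid RNA were lower. Of 9264 genes 831 were at least 1.5-fold higher (8.97%) and 976 at least 1.5-fold lower (10.5%). The cyclin gene Ccnb1 had 30.9 CPM with the combination against 10.1 CPM with rhIL-7-hyFc 1.25 mg/kg (3.06-fold, 2.05 to 4.67) and the mitotic kinase gene Plk1 18.9 against 6.42 CPM (2.95-fold, 1.78 to 5.08). Of 31 genes of G2 and mitosis 22 were higher and none lower, with a median log2 ratio of 0.65 beside 0.06 over all genes, whereas of 29 genes of S phase 2 were higher (−0.03). Mki67 itself had 102 against 83.8 CPM (1.21-fold, 1.03 to 1.43). Gzma had 964 against 384 CPM (2.51-fold, 2.35 to 2.68), with 10.5% and 33.4% of its UMIs in 1 clonotype. Within clonotypes seen once of the same libraries it had 5552 and 175 CPM, so that the gap in small clonotypes was the narrower of these, which was not tested. Pdcd1 had 871 against 684 CPM (1.27-fold, 1.20 to 1.35), the costimulatory receptor gene Icos 306 against 198 CPM (1.55-fold, 1.40 to 1.71) and Il7r 287 against 205 CPM (1.40-fold, 1.27 to 1.55). Havcr2 (1.06-fold, 0.884 to 1.28) and Tox (1.07-fold, 0.846 to 1.35) were not separated at this depth. The exhaustion list had 4 of 20 higher and 3 lower (0.19).

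Among lower genes, 22 of 32 of the type I interferon response list were at least 1.5-fold lower and none higher (median −0.71), and the antiviral gene Oasl1 had 30.6 against 113 CPM (3.70-fold lower, 2.97 to 4.64). The chemokine genes Ccl3, at 29.1 against 100 CPM (3.43-fold lower, 2.73 to 4.34), and Ccl4, at 199 against 614 CPM (3.09-fold lower, 2.83 to 3.37), and the transcription factor gene Zeb2, at 23.6 against 85.3 CPM (3.61-fold lower, 2.81 to 4.69), were lower. Ifng had 123 against 182 CPM (1.48-fold lower, 1.30 to 1.68), and Gzmb 2010 against 2247 CPM (1.12-fold lower, 1.08 to 1.16). Glycolysis genes were lower in 7 of 19 (−0.30). Myeloid RNA moved with these lists. All 14 macrophage markers were lower with the combination (median −2.73), with C1qa, a complement gene of macrophages, at 20.1 against 227 CPM. Among cells with Cd8 UMIs and none of the chosen myeloid genes the macrophage median was −2.02 and the type I interferon median −0.47. The chosen myeloid genes are themselves macrophage markers, and this choice of cells sets them to 0 in both libraries. The −2.02 thus covers fewer markers than the −2.73 and is not a like measure. Macrophages make interferon-induced and chemokine transcripts too, and the part of their RNA in these differences was not tested.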

How the data were processed

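The members, gene lists and comparisons were chosen with earlier results of these data known. The deposited expression matrices hold unnormalized UMI counts for each gene and barcode. The authors made them with Cell Ranger 4.0.0 (first experiment) and 6.1.2 (second), per the file headers; per the submitters' processing notes the genome build was GRCm38. The deposited contig tables list TCR chains per barcode with UMI counts, whose software version is not stated in the sources used here. Counts of the cells of each size class were summed per library, which gave 12 sums. With 1 library per group, the 4 libraries served as replicates for size classes, so p-values measure the spread between these libraries, which also differ in treatment.

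edgeR 4.0.16 in R 4.3.3 used TMM scaling, filterByExpr, the library as a block and the quasi-likelihood test, with all 3 classes in the fit. The fit was checked on simulated counts with 100 genes at each size of change: for small against once it called 68 of 100 genes changed by 1 on the log2 scale, 94 of 100 changed by 2 and 14 of 11433 unchanged ones, and for small against large 70, 91 and 9. The block is the library itself, in which the classes were measured together. CPM are counts per 1000000 UMIs of the summed cells. Treatment log2 ratios were taken on CPM + 1, among genes that reached 5 CPM in either library, so they understate changes of low genes. Folds have exact conditional binomial 95% intervals, and shares exact Clopper-Pearson intervals. Receptor, mitochondrial and ribosomal protein genes were left out of likeness and of gene names. Analyses ran in Python 3.11.15 with numpy 2.4.6, scipy 1.17.1 and pandas 2.3.3, figures in matplotlib 3.10.9, and DESeq2 1.42.0 was an alternative.

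Named genes were the 10 with the lowest p in each direction for size classes, the 15 with the highest mean intraclass correlation, the 8 highest and 8 lowest treatment ratios among genes that reached 50 CPM in either library, 2 members of each list, and Pdcd1, Havcr2, Entpd1, Tox, Tcf7, Il7r, Gzmb, Gzma, Ifng, Mki67, Cd8a and Cd4. Of these the text gives a part; 1 further gene of that rule and 1 receptor sequence are not reported here. Top2a, the dendritic cell sum and the receptor family were chosen after their values were seen. Germline bases of V and J segments come from GENCODE M21 transcripts and segment coordinates from RefSeq, both on GRCm38. Alternatives were other clonotype definitions (TRB alone, exactly 1 TRA), stricter cell filters, a gate for cells with Cd8 and Cd3 UMIs and none of Cd4, Lyz2, C1qa, C1qb, C1qc, Apoe and Csf1r, other scalings, no filter on low counts, no block, DESeq2, only the classes compared, each library left out, no thinning and other minimum CPM. Likeness by gene without shared TRB, in clonotypes of exactly 2, under the gate and without dividing cells, peptide matches by other nucleotides and the experiment difference under library totals were added after the data had been seen.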

Additional observations from a re-analysis of the deposited data

Results flagged for a closer look

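Zfp36, which encodes tristetraprolin, a protein that speeds the decay of cytokine mRNAs, was the 1 gene whose difference between small clonotypes and clonotypes seen once itself differed between the experiments. Small clonotypes had 315 CPM and clonotypes seen once 648 CPM with rhIL-7-hyFc 10 mg/kg, and 290 and 758 CPM with buffer. In the second experiment small clonotypes had 199 CPM and clonotypes seen once 201 CPM with the combination, and 444 and 437 CPM with rhIL-7-hyFc 1.25 mg/kg. The log2 differences of small against once were −1.04 and −1.38 in the first experiment and −0.02 and 0.02 in the second. The interaction term (second minus first experiment) was 1.28 with an edgeR adjusted p of 0.026, and 737 genes had an unadjusted p under 0.05. Scaling by library totals gave 1.22 with an adjusted p of 0.10 in edgeR, and 0 genes passed. Dose, day of collection, cell isolation and Cell Ranger version differ between the experiments and cannot be told apart.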

How the results depend on the processing

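At an equal number of barcodes the share of small clonotypes was 4.96% with rhIL-7-hyFc 10 mg/kg, 9.76% with the combination and 9.34% with rhIL-7-hyFc 1.25 mg/kg. Against clonotypes seen once, the fit with no replicate block gave 671 genes higher and 566 lower. Leaving out each library in turn gave 982 to 1654 higher and 1121 to 1516 lower, with the lowest counts without rhIL-7-hyFc 1.25 mg/kg. Against clonotypes of 5 or more, library totals gave 11 genes higher, no filter on low counts 11, no block 0, TRB alone 41 (4 lower), the gate on Cd8 and myeloid UMIs 11 (1 lower), only the classes compared 168 (158 lower) and DESeq2 41 (3 lower). With each library left out 1 to 12 were higher and 0 to 2 lower, the most without rhIL-7-hyFc 10 mg/kg. The difference between experiments had 0 genes under library totals. The cause of these shifts was not tested, apart from the fewer samples or genes that some settings use. With at least 20 CPM, rhIL-7-hyFc 10 mg/kg against buffer had 158 genes higher and 186 lower, and the combination against rhIL-7-hyFc 1.25 mg/kg 305 and 481. Under the gate, 1005 genes were higher with rhIL-7-hyFc 10 mg/kg and 542 lower with the combination. The gate kept 159 of 189 small-clonotype cells with rhIL-7-hyFc 10 mg/kg and 99 of 238 with buffer. It kept 489 of 520 with the combination and 233 of 403 with rhIL-7-hyFc 1.25 mg/kg. Before it, 15.3%, 58.0%, 5.19% and 40.4% of the cells held a UMI of a myeloid gate gene, in the same order. The part of this loss in the counts was not tested. The macrophage list median with rhIL-7-hyFc 10 mg/kg turned to 0.13 at 20 CPM, and with the combination Tcf7 turned to a log2 ratio of −0.38 for TRB alone and Cd8a to −0.073 under the gate. Likeness of sister cells was positive in all 4 libraries under each alternative run. Among the shares, gene counts and likeness means, 76 comparisons stayed the same and 29 moved. For single genes, lists and libraries 2669 comparisons counted as the same, 59 moved, 77 gained and 54 lost a call. The same here also covers sign changes of genes that passed in neither fit and of small list medians.

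Small clonotypes hold 189 to 520 cells a library, so genes of few CPM have wide intervals, and size classes depend on the cells read. Mice cannot be told apart within a library, so a receptor shared by mice and a clone of 1 mouse cannot be told apart either. Doublets, free RNA and missed alpha chains were not corrected.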

Other observations

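Clonotypes seen once with the combination had the highest Gzma and Gzmb among clonotypes seen once of the 4 libraries. Gzma had 964 CPM in small clonotypes, 5552 CPM in clonotypes seen once and 277 CPM in clonotypes of 5 or more with the combination, whereas the other 3 libraries had 182 to 512 CPM in small clonotypes and 175 to 242 CPM in clonotypes seen once. For Gzma, small clonotypes of the combination were thus above those of the other libraries too. Gzmb with the combination had 2010 CPM in small clonotypes, 4131 CPM in clonotypes seen once and 2250 CPM in those of 5 or more. With 1 library of this kind there is no test of these differences.

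The Ly49 receptor gene Klra7 was lower in small clonotypes than in clonotypes seen once. Klra7, an inhibitory receptor of NK cells and some CD8 T cells, had 1.11, 12, 4.95 and 8.56 CPM in small clonotypes and 34.7, 171, 32.8 and 39.9 CPM in those seen once (edgeR log2 difference −3.32, adjusted p = 0.0027). Small clonotypes lay below in 4 of 4 libraries. With buffer 67.7% of the 31 Klra7 UMIs of small clonotypes came from 1 clonotype. Klre1 and Klrd1, which encode receptors of the other NK lectin families, were higher in small clonotypes, by 0.86 and 0.60 on the log2 scale in edgeR (adjusted p = 1.5e-05 and 6.8e-05).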
